A study of Rattus norvegicus with 12 samples.

Results

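Liver circular RNAs were compared between diabetic rats whose diabetes came back after sleeve gastrectomy and diabetic rats sampled after the same operation. The comparison takes every relapse library of the series and every sleeve gastrectomy library, 7 of 12 libraries: relapse 1 and 2 against sleeve gastrectomy 1 to 5. The labels put each library in its group, and the 5 sham libraries are given side by side. All were wild type Wistar rats fed a diet with 60% of its calories as saturated fat for 4 weeks and fasted for 16 h before a single injection of streptozotocin (35 mg/kg), which kills insulin-producing beta cells. Rats with a fasting glucose above 16.7 mmol/L 3 days later entered the study. The sleeve gastrectomy livers were taken 3 months after surgery. The sampling time of the relapse and sham rats, the definition of relapse and the feeding state, age and sex are not stated in the labels. Nor do the labels say whether any libraries share an animal, and p-values therefore reflect only how these samples spread, which may be technical.

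A circular RNA (circRNA) forms when a splice donor joins an acceptor upstream of it, so that exons close into a loop. Such a loop has no free end and resists RNase R, the exonuclease used here to digest linear RNA, and it is counted by reads across its back-splice junction. Intronic circles, named ciRNA in the deposited table, come from intron sequence. The gene that gives rise to a circle is its host, and a circle's level need not follow that of the host's mRNA. In a piece of liver, fewer cells of a type and less RNA per cell cannot be told apart. Sleeve gastrectomy removes most of the stomach and lowers blood glucose in many diabetic animals, and the liver is the main site of glucose release, fat synthesis and drug metabolism.

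The 2 relapse libraries held 18473 and 37229 back-splice reads and lay just below and above the sleeve gastrectomy libraries, which held 18541 to 30520. With 0 reads, a level of at most 162 reads-per-million (RPM) could have gone unseen in relapse 1 and of at most 80.6 in relapse 2, from counting error only. The table held 21068 junctions and 6021 hosts, of which 15483 and 5211 had reads in the 7 libraries. Only 674 junctions and 793 hosts had reads in all 7. Levels are counts-per-million (CPM), scaled by TMM to the reads of the tested hosts or junctions, and were not divided by length. They were tested by edgeR's quasi-likelihood test in 1 fit of all 12 libraries, with Benjamini-Hochberg adjusted p-values and a threshold of 0.05.

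CircRNAs of 1 host, Nfatc2, were lower in relapse, and none were called higher. That is 1 of 1337 tested hosts (0.0748%) lower and 0 (0.0%) higher in edgeR, with 58 hosts at an unadjusted p under 0.05, 42 of them lower and 16 higher. DESeq2 and limma-voom called 0 hosts, with 53 and 69 at an unadjusted p under 0.05. Both relapse libraries lay below all 5 sleeve gastrectomy libraries in 68 hosts (5.09%) and above all 5 in 63 (4.71%). With the authors' own scaling these numbers were 39 and 62, and the median log2 fold change of all tested hosts moved from −0.05 to 0.09. The relapse libraries were on the same side of the sleeve gastrectomy mean in 756 hosts (56.5%). Among single junctions, edgeR called 0 of 1519 lower (0.0%) and 0 higher (0.0%), with a smallest adjusted p of 0.747 and 73 at an unadjusted p under 0.05. DESeq2 and limma-voom also called 0 junctions, with 72 and 104 at an unadjusted p under 0.05. Both relapse libraries lay below all 5 in 65 junctions (4.28%) and above all 5 in 69 (4.54%). The 7 libraries can be split into 2 and 5 in 21 ways. In 1 of these the 2 lowest values fall together and in 1 the 2 highest, a share of 0.0476 each. The shares of hosts and junctions below or above all 5 are near that with TMM scaling. Lying outside the range therefore does not by itself set a host or junction apart.

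**Figure D1:**
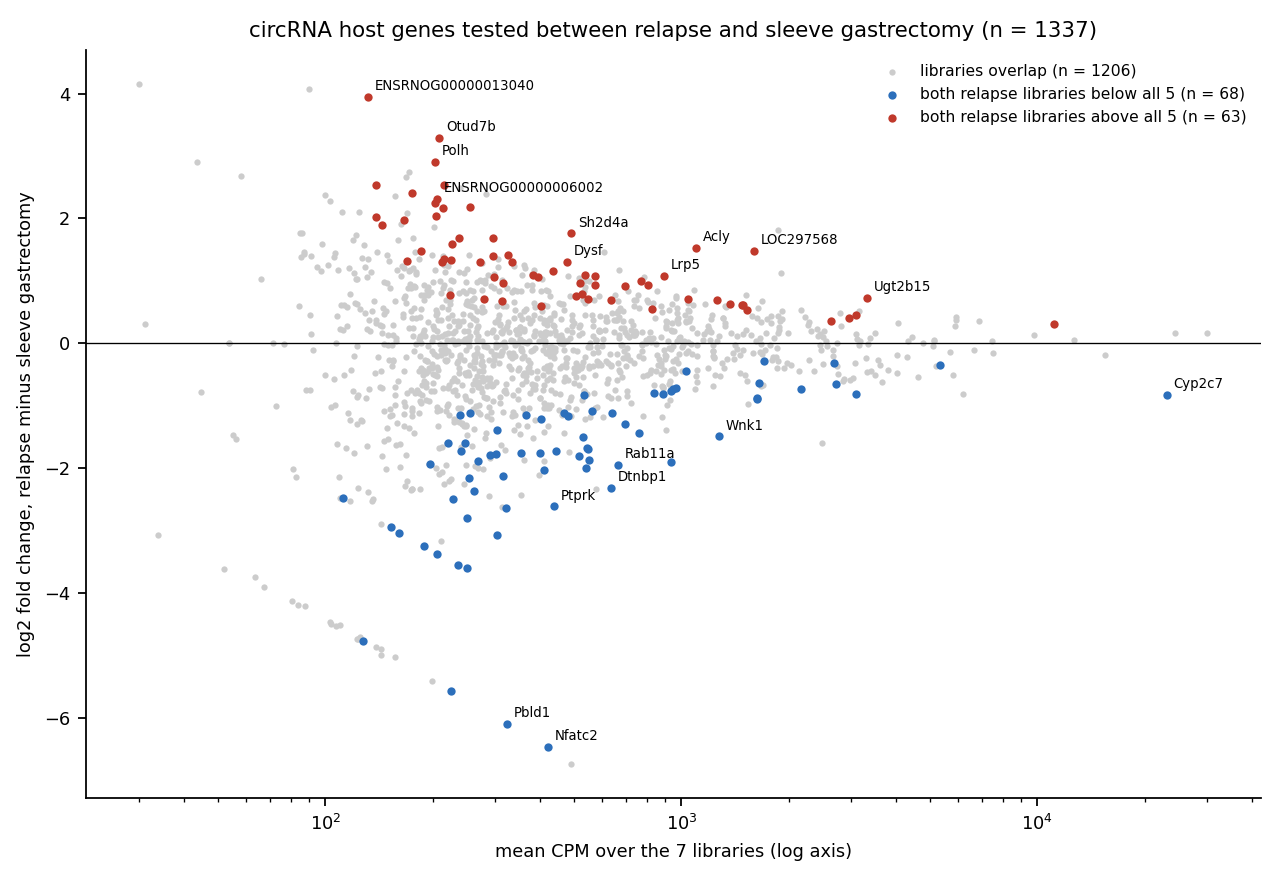
Mean level over the 7 libraries in CPM (log axis) against the log2 fold change of relapse minus sleeve gastrectomy for the 1337 tested hosts, one point per host. Blue and red points are the 68 and 63 hosts whose relapse libraries lie below or above all 5 sleeve gastrectomy libraries; Nfatc2 at −6.46 is the 1 host past the threshold, and Cyp2c7 is the most abundant of the labelled hosts.

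Nfatc2 encodes NFAT1, a transcription factor that calcineurin, a calcium-dependent phosphatase, dephosphorylates so that it enters the nucleus. Its circles had 0 reads in relapse 1 and 0 in relapse 2. The sleeve gastrectomy libraries 1 to 5 had 2, 21, 5, 9 and 18 reads, and the sham libraries 1 to 5 had 23, 8, 8, 6 and 4. Every sleeve gastrectomy and sham library thus had at least 2 reads where both relapse libraries had none. Sleeve gastrectomy libraries averaged 592 ± 462 CPM and sham libraries 553 ± 305 (SD, n = 5 each). Against 3 reads over the relapse group, the level was at least 8.69-fold lower in relapse, at least 5.66-fold without relapse 1 and at least 3.04-fold without relapse 2. These bounds, and those of other features below, allow for counting error in the group at 0 reads only. They do not allow for the spread between libraries, nor for low counts that the table may leave out. In entries with Ensembl identifiers or intergenic, 1.68% of values above 0 were 1 read, against 38.12% in entries with symbols. Whether low counts were left out there was not tested. The edgeR adjusted p was 0.0434 (fitted log2 fold change −6.46, SE 1.46, lower in 2 of 2 relapse libraries), and a fitted value against 0 reads is no bound. The call was lost without relapse 1 (adjusted p = 0.206), relapse 2 (0.263) or sleeve gastrectomy 2 (0.103), 4 (0.0537) or 5 (0.133). Among 10 other alternatives for Nfatc2, the lowest adjusted p was 0.0226 and the highest 0.961, 3 of them passed, and with symbol entries only the value was 0.842.

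Nfatc2 gave 4 junctions with reads in the 7 libraries, and 2 of them were tested. CircRNA7962 (Rnor_6.0 chromosome 3, 165333441 to 165338806, minus strand, 2 exons) had 2, 0, 2, 6 and 7 reads in sleeve gastrectomy 1 to 5. CircRNA8947 (165333442 to 165339326, 2 exons) had 0, 12, 3, 2 and 11. Neither had a read in relapse, and in each of them at least 1 sleeve gastrectomy library also had none, so the groups overlapped. Neither passed in edgeR (adjusted p = 0.981 for both).

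Of 36 genes of calcineurin and NFAT signalling, 20 had reads and 8 were tested. Of these, 1 was called lower (Nfatc2), against 0.0748% of all tested hosts, and 0 higher. The list was chosen with earlier results of these data known and holds the 1 called host, so this count is no separate observation. The median log2 fold change was 0.13, against −0.05 over all tested hosts. Cabin1, an inhibitor of calcineurin, had 1955 and 1961 CPM in relapse against 1209 to 1777 after sleeve gastrectomy, and the groups did not overlap (adjusted p = 1.0). Itpr2, a calcium release channel of the endoplasmic reticulum, had 1173 and 1926 CPM against 358 to 1586. Xpo1, which exports NFAT from the nucleus, had 391 and 210.1 CPM against a mean of 429. The other NFAT hosts lay within the sleeve gastrectomy range or around it. Nfat5 had 847 and 175 CPM against 116 to 819, and Nfatc1 had 0 and 315 against 0 to 490.3. The kinase Dyrk1a, which phosphorylates NFAT, had 0 and 771 CPM against 68.3 to 797. Ppp3cc, a catalytic subunit of calcineurin, had 65.2 and 420.3 against 0 to 408. In Nfatc1, Dyrk1a and Ppp3cc relapse 1 was at or near 0 while relapse 2 was not, and the sign of the fold change of Nfat5, Nfatc1, Dyrk1a and Ppp3cc turned under other settings.

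Cyp2c7, a liver cytochrome P450 of retinoid and steroid metabolism, was the most abundant host among those named. It had 13753 and 16006 CPM in relapse 1 and 2, and 31091, 17527, 26619, 27647 and 28983 after sleeve gastrectomy. Both relapse libraries lay below all 5, with sleeve gastrectomy 2 nearest to them. The relapse mean of 14879 ± 1593 (SD, n = 2) was 0.564 times the sleeve gastrectomy mean of 26374 ± 5220.4 (SD, n = 5), and the sham mean was 25856 ± 3633 (SD, n = 5). No sham library fell outside the sleeve gastrectomy range. The log2 fold change was −0.82 (SE 0.24) with an unadjusted p of 0.000784, and it did not pass after adjustment (edgeR adjusted p = 0.349). Its log2 fold change ranged from −0.95 to −0.66 over 17 alternatives, of which none passed.

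A pair of exonic circles made up most of the Cyp2c7 reads, and both lay lower in relapse by a like amount. CircRNA2052 (chromosome 1, 148097769 to 148107916, minus strand, 4 exons) had 7073 and 7614 CPM in relapse and 14300, 8702, 13281, 15137 and 13031 after sleeve gastrectomy. CircRNA2050 (148084421 to 148107916, 5 exons) had 6207 and 5450.3 against 12988, 7786, 8068, 10546 and 11030.0. Neither overlapped between the groups and neither passed (edgeR adjusted p = 0.747 for both). Their shares of the host's reads were close: circRNA2052 took 44.0% in relapse and 44.7% after sleeve gastrectomy, and circRNA2050 took 35.3% and 35.0%, as means over libraries. CircRNA2049 (148084421 to 148099923, 3 exons) had 505 and 802 CPM against 785 to 2296 and overlapped. CiRNA608 (148084409 to 148107916), classed as intronic by the authors, has the same end as circRNA2050 and starts a few bases away from it. CiRNA607 lies beside circRNA2049 in the same way. Whether these are separate circles was not tested. CiRNA608 set the relapse libraries apart from each other: it had 0 reads in relapse 1 and 76 in relapse 2, against 13 to 96 after sleeve gastrectomy. CircRNA2809, ciRNA607, ciRNA609 and ciRNA221 held between 0 and 19 reads in each of the 7 libraries. Cyp2c genes are near copies of one another, and reads of one could have been assigned to another.

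**Figure D2:**
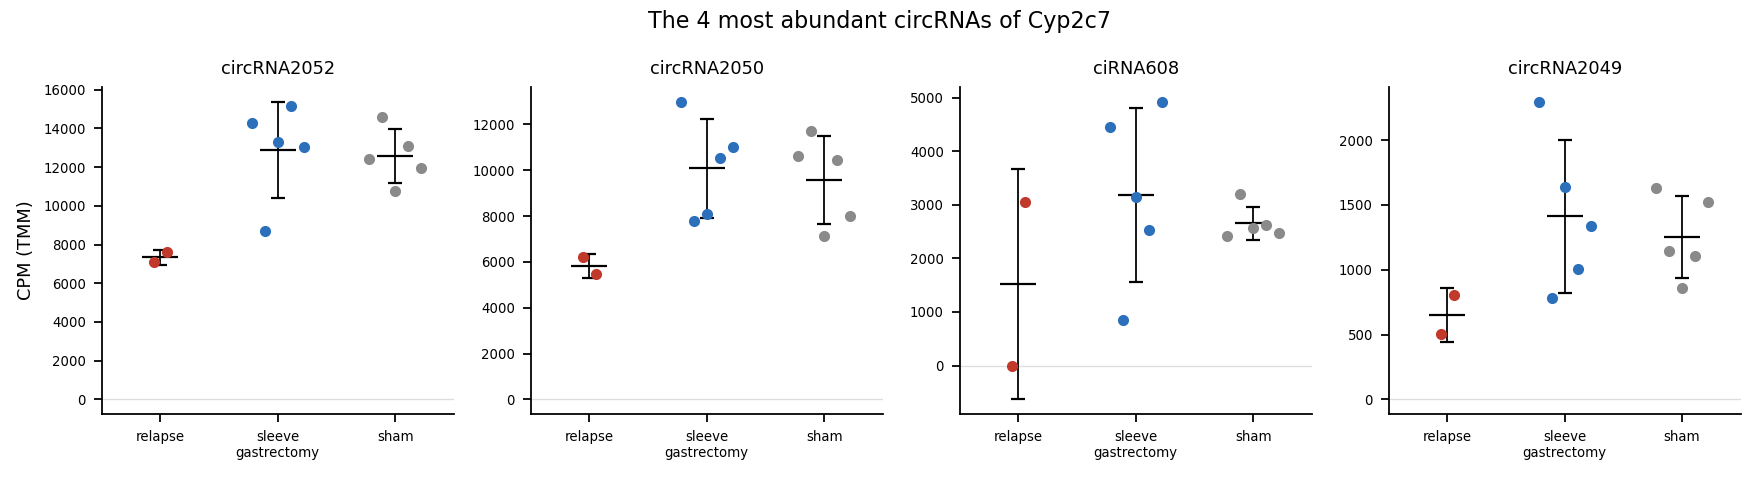
CPM per library of the 4 Cyp2c7 circRNAs with most reads, as points by group (relapse n = 2, sleeve gastrectomy n = 5, sham n = 5), with mean and SD. CircRNA2052 and circRNA2050 lie below all sleeve gastrectomy libraries in both relapse libraries, while ciRNA608 is at 0 in relapse 1 and at 3046 CPM in relapse 2.

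Of 11 Cyp2c genes, 8 had reads, 5 were tested and 0 were called in either direction; 2 lay below all 5 sleeve gastrectomy libraries, as 5.09% of all tested hosts did. The median log2 fold change was −0.73, against −0.05 over all tested hosts. Cyp2c6v1 had 1434 and 1506 CPM in relapse against 2176 to 3064 (adjusted p = 1.0). Cyp2c23, an epoxygenase of arachidonic acid, had 65.2 and 105 against 90.6 to 819. The male-specific rat enzymes went the other way or split: Cyp2c11 had 1238 and 2242 CPM against 478 to 1858, and Cyp2c13 had 1108 and 8266 against 872 to 9376. Cyp2c13 varied about as much within relapse as within the other groups. Cyp2c7 is also 1 of 14 hepatocyte markers, of which 12 had reads and 8 were tested. All 8 had a log2 fold change below 0, as did 709 of all 1337 tested hosts. Their median was −0.45, and 0 were called. Summed over the list, the hepatocyte markers gave 22400.0 and 23200.0 RPM in relapse, 25800.0 to 41300.0 after sleeve gastrectomy and 29300.0 to 42000.0 in sham. Cyp2c7, named for its low values in relapse, held 5298 of the list's 9172 reads over the 12 libraries. The sum without Cyp2c7 was not tested.

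Markers of other liver cells were few in all groups. Of 9 Kupffer cell and macrophage markers 3 had reads, with 108 and 242 summed RPM in relapse and 34.2 to 835 after sleeve gastrectomy; Cd163, Clec4f and Marco had none. Of 12 lymphocyte and granulocyte markers 3 had reads (Ikzf1, Bcl11b and Ptprc), with 108 and 188 against 49.1 to 425, and Cd3e and Cd4 had none. Endothelial markers gave 595 and 806 against 284 to 917, mostly from Flt1, and stellate cell markers 134 and 217 against 0.0 to 344. The 7 cholangiocyte markers and the 9 pancreas and gut markers had no reads in any library. Of the 14 hepatocyte markers, Alb, Tf, C3, Cps1, Cyp2c7, Cyp2e1 and Pck1 had reads in each of the 7 libraries. F2 and Hnf4a had none in relapse, and after sleeve gastrectomy only 1 read in library 1 and 4 in library 5, respectively. Serpina1 had none in the 7 libraries, and Apoa1 and Ttr had none in any library.

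Pbld1 was the host next to Nfatc2 in order of p. It had 0 reads in both relapse libraries and 5, 5, 6, 8 and 20 in sleeve gastrectomy 1 to 5, at least 6.96-fold lower (edgeR adjusted p = 0.179). That bound was 4.52 without relapse 1 and 2.43 without relapse 2. In sham it had 20, 5, 5, 9 and 1. Its reads came from 5 junctions on chromosome 20, each of them at 0 in relapse. Over all tested hosts, 26 had 0 reads in both relapse libraries and 4 of these had reads in all 5 sleeve gastrectomy libraries.

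Further hosts with both relapse libraries below all 5 sleeve gastrectomy libraries did not pass. They are not the next in order of p over all tested hosts, since hosts whose groups overlapped are left out here. Of those, Agmo (log2 fold change 1.12) ranked before all the hosts below, and Dhtkd1 (−2.34) before all but Wnk1. Neither Agmo nor Dhtkd1 passed. Wnk1, a kinase that regulates salt transporters, had 196 and 841 CPM in relapse against 1859.7, 1532, 1365, 1314 and 1837 (log2 fold change −1.49, SE 0.49, edgeR adjusted p = 0.627). Dtnbp1, or dysbindin, a subunit of a complex that forms lysosome-related organelles, had 0 and 280.2 against 929.8, 429, 546, 1496 and 762 (−2.31, SE 0.79, adjusted p = 0.659). Rab11a, a small GTPase of recycling endosomes, had 130.4 and 280.2 against 1046, 674, 409.5, 816 and 1299 (−1.95, SE 0.71, adjusted p = 0.745). In these 3 hosts the relapse libraries lay below all 5, and relapse 1 was the lower of the 2. Sham levels of Dtnbp1 and Rab11a, 401 ± 240.0 and 426 ± 143 CPM (SD, n = 5), lay between those of relapse and sleeve gastrectomy. Ptprk, a receptor tyrosine phosphatase of cell contacts, had 65.2 and 105 CPM against 363 to 1046, Mipol1 had 196 and 175 against 448 to 1229, and AABR07037451, described in the table as Fam120c, had 65.2 and 245 against 273 to 896 (adjusted p = 0.792, 0.873 and 0.79).

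**Figure D3:**
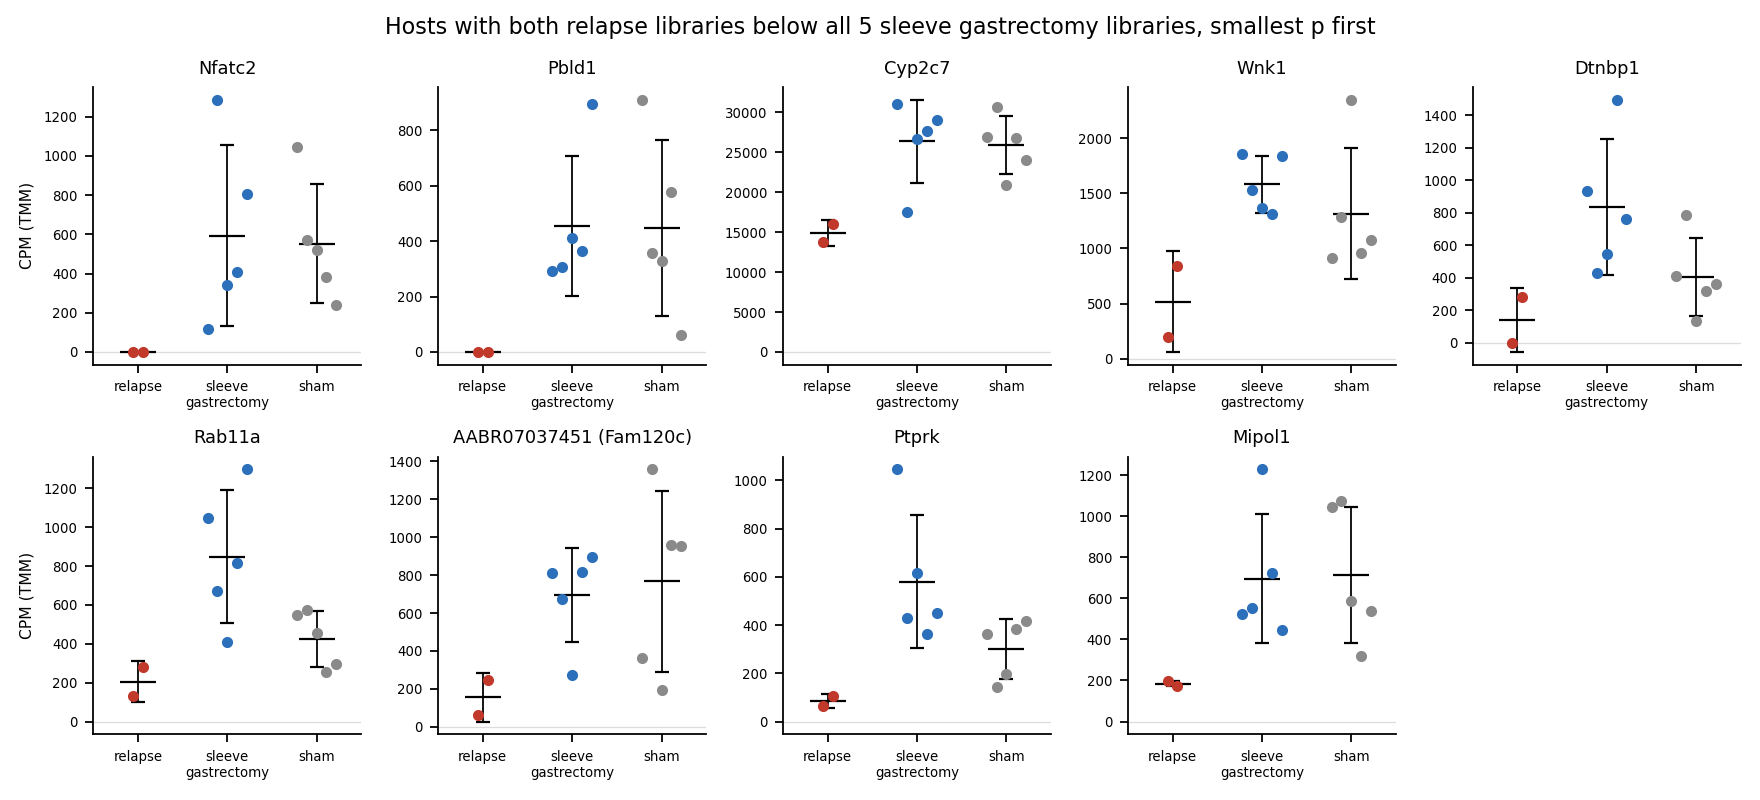
CPM per library of the hosts named by the rule with both relapse libraries below all 5 sleeve gastrectomy libraries, as points by group (relapse n = 2, sleeve gastrectomy n = 5, sham n = 5), with mean and SD; each panel has its own axis. Nfatc2 and Pbld1 are at 0 in both relapse libraries, and sham libraries overlap with sleeve gastrectomy in each panel.

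Acly, the ATP citrate lyase that supplies cytosolic acetyl-CoA for fatty acid synthesis, had the smallest p among hosts with both relapse libraries above all 5 sleeve gastrectomy libraries. It had 2672 and 1506 CPM in relapse 1 and 2 and 755, 613, 341, 1042 and 762 after sleeve gastrectomy. Both relapse libraries lay above all 5 and above all 5 sham libraries, which ranged from 214 to 653. The relapse mean was 2.97 times that of sleeve gastrectomy (log2 fold change 1.53, SE 0.48), and it did not pass (edgeR adjusted p = 0.544). Most of its reads came from circRNA430 (chromosome 10, 88397109 to 88397582, minus strand, 2 exons), with 31 and 28 reads in relapse against 6, 5, 4, 20 and 15.

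Of 35 genes of lipid synthesis and storage, 25 had reads, 10 were tested and 0 were called; 5 had a log2 fold change above 0 and 5 below, with a median of 0.07. Fasn, the fatty acid synthase, had 16 and 9 reads in relapse and 7, 2, 0, 0 and 2 after sleeve gastrectomy, or 1043 and 315 CPM against 0 to 407, so that the groups overlapped (edgeR adjusted p = 1.0). The acetyl-CoA carboxylase Acaca had means of 551 and 207 CPM, and its paralog Acacb 391 and 235. Fads2, the delta-6 desaturase of polyunsaturated fatty acids, had 1043 and 981 CPM in relapse against 2964, 1287, 2184, 1722 and 1254 and lay below all 5 (log2 fold change −0.89, SE 0.43, adjusted p = 1.0). Of the others, Lpin1 had a log2 fold change of 1.11, and Acsl1, Acsl4, Apob and Plin2 had −0.58, −0.57, −1.01 and −1.33 (adjusted p = 1.0 for each).

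**Figure D4:**
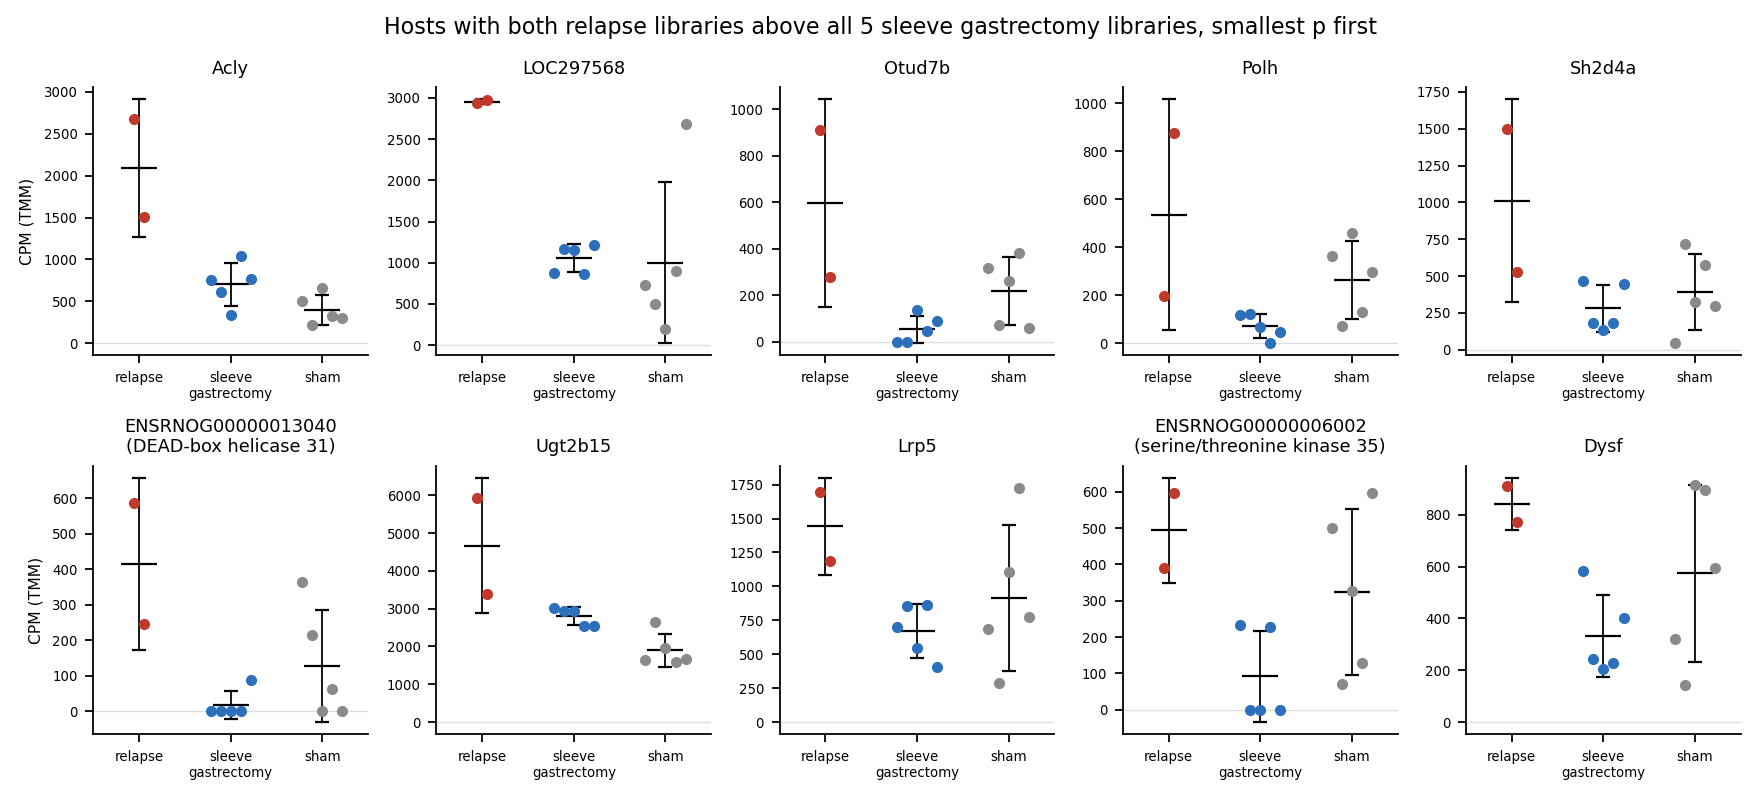
CPM per library of the 10 hosts named by the rule with both relapse libraries above all 5 sleeve gastrectomy libraries, as points by group (relapse n = 2, sleeve gastrectomy n = 5, sham n = 5), with mean and SD; each panel has its own axis. Acly, LOC297568 and Ugt2b15 have both relapse libraries above 1500 CPM, and none of the 10 passed the threshold.

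LOC297568, an alpha-1-inhibitor III gene of the family of plasma protease inhibitors, had 2933 and 2977 CPM in relapse and 872, 1164, 1160.3, 861 and 1209 after sleeve gastrectomy (log2 fold change 1.48, SE 0.48, edgeR adjusted p = 0.627). The relapse libraries were nearly equal and lay above all 5, but sham 5 reached 2683. Its reads were spread over 53 junctions, and circRNA1550 (chromosome 4, 154538001 to 154538495, 2 exons) held 15 and 39 of them in relapse against 0, 12, 3, 4 and 11. The family has near-identical copies side by side, some circles span several of them, and the assignment to this member is uncertain. Ugt2b15, a glucuronosyltransferase of a family with the same limit, had 5931 and 3397 CPM against 2538 to 3022 (0.73, SE 0.32, adjusted p = 1.0), and its sham mean of 1902 ± 439 (SD, n = 5) was below both.

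The other hosts that lay higher had few reads. Lrp5, a co-receptor of Wnt, had 1695 and 1191 CPM in relapse against 403 to 861. Dysf, a protein of membrane repair, had 913 and 771 against 205 to 581. Sh2d4a, an SH2 domain adaptor, had 1499 and 525 against 137 to 465. Otud7b, a deubiquitinase, had 14 and 8 reads in relapse against 0, 0, 2, 1 and 2, and Polh, the translesion DNA polymerase eta, had 3 and 25 against 2, 2, 1, 0 and 1. ENSRNOG00000013040, described as DEAD-box helicase 31, had 9 and 7 reads against 0, 0, 0, 0 and 2, and ENSRNOG00000006002, described as serine/threonine kinase 35, had 6 and 17 against 4, 0, 0, 5 and 0. Their edgeR adjusted p-values lay between 0.745 and 1.0. For Otud7b, Sh2d4a and ENSRNOG00000013040 relapse 1 was the higher library, and for Polh it was relapse 2. In each of these hosts the highest sham library lay above the lower relapse library. That sham library had 1727 CPM for Lrp5, 914 for Dysf, 715 for Sh2d4a, 384 for Otud7b and 457 for Polh. It had 364 CPM for ENSRNOG00000013040 and 596 for ENSRNOG00000006002. For Lrp5, Dysf and ENSRNOG00000006002 it lay above both relapse libraries.

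Of the 65 junctions (4.28%) with both relapse libraries below all 5, 2 of those named come from fatty acid oxidation genes. CircRNA2493 of Hadhb, the beta subunit of the mitochondrial trifunctional protein (chromosome 6, 27573047 to 27582987, minus strand, 5 exons), had 6 and 0 reads in relapse and 35, 10, 17, 14 and 21 after sleeve gastrectomy (log2 fold change −2.68, SE 0.77, edgeR adjusted p = 0.747). The host Hadhb as a whole had 1238 and 1086 CPM against 981 to 2964 and overlapped. CircRNA7290 of Crot, the peroxisomal carnitine octanoyltransferase (chromosome 4, 22102428 to 22104879, plus strand, 3 exons), had 0 reads in relapse against 4, 11, 2, 7 and 5, at least 4.47-fold lower (adjusted p = 0.747). Without relapse 2 that bound was 1.60, and without relapse 1 it was 2.88. The host Crot as a whole had means of 546 CPM in relapse and 736 after sleeve gastrectomy and overlapped. Fatty acid oxidation and ketogenesis had 46 listed genes, of which 38 had reads, 18 were tested and 0 were called, with a median log2 fold change of −0.10 and no host outside the sleeve gastrectomy range.

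The junction of Chn2, a GTPase-activating protein of Rac (chromosome 4, 84371348 to 84376531, plus strand, 3 exons), had 0 reads in relapse against 8, 3, 3, 6 and 22. The level was lower by at least 6.48-fold, and the bound was 4.17 without relapse 1, 2.31 without relapse 2 and 4.02 without sleeve gastrectomy 5, which holds 22 of the 42 reads. It is written as circRNA10085 in some libraries and circRNA7978 in others, and sham 3 and 5 had 0 reads too. The host Chn2 as a whole overlapped, with a log2 fold change of −0.88. CircRNA3508 of Dtnbp1 (chromosome 17, 20098293 to 20109613, 4 exons) had 0 and 4 reads against 13, 4, 8, 28 and 14. CircRNA2375 of Rab11a (chromosome 8, 70203323 to 70206310, 3 exons) had 2 and 6 against 18, 11, 6, 18 and 29, which is nearly all of that host's reads. The edgeR adjusted p was 0.747 for each of these 3 junctions.

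On the higher side, circRNA1417 of Camta1, a calmodulin-binding transcription activator (chromosome 5, 168985431 to 168991261, minus strand, 2 exons), had 21 and 28 reads in relapse against 9, 5, 3, 13 and 6 (log2 fold change 1.61, SE 0.55, edgeR adjusted p = 0.747). In sham 1 to 5, circRNA1417 had 13, 13, 11, 5 and 17 reads, and 3 sham libraries lay above all 5 sleeve gastrectomy libraries in CPM. The host Camta1 as a whole overlapped, with a log2 fold change of 0.28. CircRNA1168 of Agmo, which cleaves ether lipids (chromosome 6, 56978123 to 57048318, 9 exons), had 9 and 15 against 0, 0, 2, 3 and 0, with 2 to 6 in sham. CircRNA2232 of Polh (chromosome 9, 17166590 to 17167490, 2 exons) had 3 and 25 against 2, 2, 0, 0 and 1, with 0 to 6 in sham. The intronic ciRNA240 of Ces1d, a carboxylesterase (chromosome 19, 15151107 to 15207439), had 8 and 10 reads against 0 in all 5 sleeve gastrectomy libraries, at least 13-fold higher (adjusted p = 0.747). In sham, ciRNA240 had 3 reads, all in library 2. The host Ces1d overlapped, with 5149 and 2697 CPM in relapse but 4435 in sleeve gastrectomy 5. The intergenic circRNA2679 (chromosome 4, 58367537 to 58373171) had 5 and 10 reads against 0, at least 10.8-fold higher. Sham 1 and 5 also had reads of circRNA2679, 8 and 7, or 394 and 445 CPM against 361 and 401 in relapse. A neighbouring junction, circRNA8062, ends 3 bases before it and had 0 reads in relapse and 9, 0, 8, 7 and 7 after sleeve gastrectomy, and with the pair summed the log2 fold change was 0.03.

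No other list of genes had a called host. In glucose production and glycogen, 8 of 39 genes were tested with a median log2 fold change of 0.21: Phkb, a subunit of phosphorylase kinase, had 2738 and 4238 CPM against 2329 to 2912, and Gbe1, the glycogen branching enzyme, 2021 and 841 against 523 to 1088. In insulin signalling, 9 of 38 were tested with a median of −0.36: Insr, the insulin receptor, had 326 and 771 CPM against 552 to 1365 (edgeR adjusted p = 1.0). In cholesterol and bile acids, 14 of 40 were tested with a median of −0.36, and Scap, the escort of the sterol-sensing transcription factors, had 0 and 1 reads against 2, 3, 3, 4 and 9. Scap was the 1 host of that list below all 5 libraries, and Lrp5 and Lrp6, with log2 fold changes of 1.08 and 0.31, were the 2 above all 5. Over all tested hosts, 5.09% lay below all 5 and 4.71% above. In secreted proteins and complement, 19 of 73 were tested with a median of −0.45; 14 had a log2 fold change below 0, as did 709 of all 1337 tested hosts, and 3 lay below all 5 libraries, against 5.09% of all tested hosts. Cp, the copper carrier ceruloplasmin, had 0 and 210.1 CPM against 272 to 1103 (log2 fold change −2.03, SE 0.88, adjusted p = 1.0), and F10, coagulation factor X, had 717 and 455 against 806 to 1220.4. These medians stand beside −0.05 over all tested hosts. In this list of liver products, the summed level was 15700.0 and 19400.0 RPM in relapse and 18500.0 to 27000.0 after sleeve gastrectomy. Its members Alb, Apob, C3 and Tf are also among the hepatocyte markers, so the lists are not separate observations.

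The remaining lists were near the median of all hosts or had few tested members. Other xenobiotic metabolism had 13 tested hosts with a median of 0.17, amino acids and urea cycle 27 with −0.04, mitochondria and the tricarboxylic acid cycle 5 with −0.54, endoplasmic reticulum folding and stress 13 with −0.11, inflammation 8 with −0.14, and circRNA processing factors 3 with −0.01. None of the 22 circadian clock genes was abundant enough to be tested. Of 57 widely conserved circRNA hosts, 31 were tested with a median of −0.14; 4 lay below and 4 above all 5 sleeve gastrectomy libraries, against 5.09% and 4.71% of all tested hosts. Among them Crim1 had 2086 and 1786 CPM against 2329 to 3549, and Zbtb20, a zinc finger repressor of liver, had 0 and 1 reads against 6, 5, 4, 3 and 5.

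**Figure D5:**
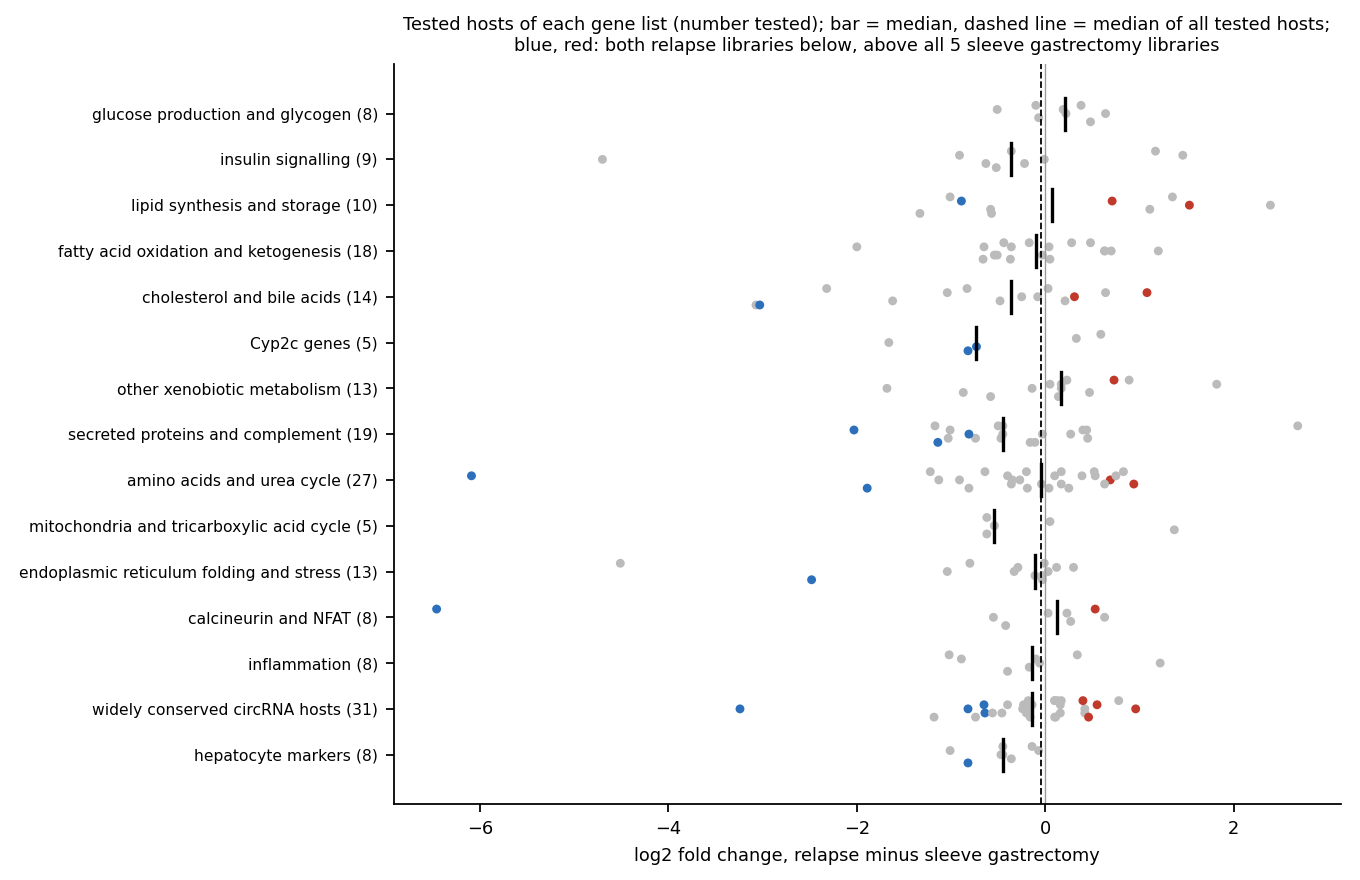
Log2 fold change of relapse minus sleeve gastrectomy for each tested host of the gene lists with at least 5 tested hosts, one point per host, with the number tested in brackets, the list median as a bar and the median of all tested hosts, −0.05, as a dashed line. The points of most lists fall on both sides of 0; those of the 8 hepatocyte markers are all below it.

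The composition of the circles as a whole did not pass a test between the groups. Drawn down to 18473 reads, relapse 1 and 2 gave 3256 and 4262 junctions and the sleeve gastrectomy libraries 3285 to 4444 (exact two-sided permutation p = 0.667). The 10 most abundant junctions took 10.8 ± 0.133% and 11.5 ± 1.08% of reads (relapse first; SD, n = 2 and 5; exact permutation p = 0.476). Single-exon circles took 8.73 ± 0.0616% and 8.24 ± 1.10%, circles of 5 or more exons 12.9 ± 1.02% and 13.4 ± 0.938%, and intronic circles 6.50 ± 1.07% and 6.42 ± 0.561%. Over the 5 measures the adjusted p lay between 0.893 and 0.905, and 2 libraries against 5 allow 21 splits and no exact p below 0.0476.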

How the data were processed

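CircRNAs were sequenced from rRNA-depleted, RNase R-treated total RNA of rat liver. The authors deposited raw back-splice read counts per library, and a normalised signal, SRPBM, which in each library is the count times 1 constant. Per the submitters' processing notes, cutadapt 1.9, FastQC, TopHat2 2.0.10 and Rnor_6.0 were used; the back-splice caller is not given in the sources used here. The table's 21876 entries (18175 with host symbols, 3701 with Ensembl identifiers or intergenic) were summed to 21068 junctions, since 808 junctions were written as 2 entries, and then by host, with 1458 of 1696 identifiers joined to a symbol. Single reads made up 38.12% of the values above 0 in symbol entries and 1.68% in identifier entries. Coordinates count from 1.

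Hosts and junctions were filtered with filterByExpr (minimum count 5, minimum total 15), normalised by TMM and tested by edgeR 4.0.16 in R 4.3.3 with a robust quasi-likelihood fit of 3 group means; DESeq2 1.42.0, limma-voom (limma 3.58.1), other scalings and filters and left-out libraries were alternatives. The fits were tested on simulated data. A group at 0 reads was given 3 reads for a bound, which covers counting error and not the spread between libraries.

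The members, lists and tests were chosen with earlier results of these data known. Named were hosts past the threshold, then hosts of smallest p with both relapse libraries outside the sleeve gastrectomy range, to 10 lower and 10 higher (junctions: 6 and 6), up to 3 tested genes of each list, and all tested Cyp2c and calcineurin and NFAT genes. 2 of the hosts that this gives are not reported here. The rule also allows the tested junctions of every named host and up to 3 genes of each marker list. After the values under the alternatives had been seen, and because many of them changed sign, these were narrowed to the junctions of Nfatc2 and Cyp2c7 and 1 gene of each marker list, so the count of values that changed sign covers those features only. Acaca, Acacb, Lpin1, Acsl1, Acsl4, Apob, Plin2 and Lrp6 were named after their values were seen. The scaling by SRPBM and the summing of junctions within 5 bases were added after seeing the data.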

Additional observations from a re-analysis of the deposited data

Results flagged for a closer look

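Within the 5 sleeve gastrectomy libraries, 1 library stood apart from the other 4 in 9 of 102 results tested, by Dixon's gap test at the 95% level. For normally spread values it flags about 1 in 20 by chance. That rate need not hold here, where some results are low counts tied at 0 and hosts share reads with their junctions. Sleeve gastrectomy 5 was high for Pbld1 (896 CPM, against 291 to 409.5 in the others), ENSRNOG00000013040 (89.6 against 0), Ces1d (4435 against 68.3 to 523), Acaca (717 against 0 to 136) and ciRNA221 of Cyp2c7 (821 against 0). Sleeve gastrectomy 3 was high for Rps6kb1 (614 against 0 to 174), Cyp2c23 (819 against 90.6 to 291) and Hsp90b1 (683 against 0 to 89.6). Sleeve gastrectomy 2 was high for Cabin1 (1777 against 1209 to 1337).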

How the results depend on the processing

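The count of called hosts was 1. It was 0 with DESeq2, limma-voom, the authors' SRPBM scaling, host names as written, a minimum count of 10, symbol entries only or the 7 libraries alone, and 2 with no filter on low counts; leaving out 1 library gave 0 to 1, and without relapse 2 the called host was not Nfatc2. The count of called list members was 0 under the same settings that gave 0 hosts, and 0 to 1 over left-out libraries. Called junctions went from 0 to 2 with no filter and to 2 with the replicate block, and over left-out libraries from 0 to 9 (4 without relapse 1, 9 without relapse 2). Without relapse 1, circRNA2493 of Hadhb passed (edgeR adjusted p = 4.6e-05), and without relapse 2, ciRNA608 of Cyp2c7 passed (3.34e-10). In both, the relapse group is then 1 library at 0 reads that is assumed to vary like the other groups. The cause was not tested. The fit with the replicate number as a block called 1 host and 2 junctions. The numbers pair only 2 libraries with 2, their deviations correlated by 0.0114 and 0.00808, and nothing in the labels says that they pair samples. The deviations of 2 relapse libraries from their own mean mirror each other. Relapse 2 with sleeve gastrectomy 1 thus gave −0.0114, and relapse 1 with sleeve gastrectomy 2 gave −0.00808. These correlations are therefore not separate checks and cannot decide whether the numbers pair samples.

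Of 1573 values of 97 named features under the alternatives, 1509 kept their direction and side of the threshold, 50 changed sign, 12 lost the call (all Nfatc2) and 2 gained one. Log2 fold changes that changed sign were, with the replicate block, Cyp2c13 (−0.57), Dyrk1a (−0.40), Tnrc6a (−0.18), Ikzf1 (0.22) and ciRNA609 (−0.15); with limma-voom, Nfat5 (−0.17), Dyrk1a (−0.45) and Hnrnpm (0.14); with host names as written, Nfat5 (−4.83), Ppp3cc (−1.78) and Hnrnpm (0.01); with symbol entries only, Nfat5 (−4.85) and Ppp3cc (−1.79); with SRPBM scaling, Hnrnpm (0.23) and ciRNA221 (−0.42); with no filter, Hnrnpm (0.02) and ciRNA221 (−0.07); with the 7 libraries alone, Hnrnpm (0.03) and ciRNA221 (−0.06); and with a minimum count of 10, circRNA2809 (−0.03). Over left-out libraries the log2 fold changes that changed sign ranged from −0.03 to 1.16 for Gbe1, −1.78 to 1.17 for Cyp2c13, −1.72 to 0.01 for Coq3, −0.15 to 2.25 for Suclg1, just below 0.0 to 1.80 for Lpin1, −1.89 to 0.05 for Acsl1, −1.13 to 1.05 for Nfat5, −5.05 to 0.50 for Nfatc1, −5.65 to 1.16 for Dyrk1a, −1.87 to 0.76 for Ppp3cc, −0.54 to 2.43 for Traf3, −0.71 to 0.45 for Hnrnpm, −5.54 to 0.08 for Adgre1, −0.18 to 0.39 for Flt1, −4.60 to 0.91 for ciRNA221, −4.36 to 1.62 for ciRNA609 and −0.32 to 0.34 for circRNA2809. For most of these an end of the range is the value without relapse 1 or relapse 2. The library measures ranged from −736.0 to 270.0 junctions, from −1.23 to 0.213 percentage points of reads in circles of 5 or more exons and from −0.675 to 0.833 of intronic circles, the last of which was −0.187 with symbol entries only. With 2 relapse libraries of unequal depth, hosts with a few reads per library carry wide errors.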
